A study of Mus musculus with 60 samples.

Results

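Whole colon collected at ZT16 from mice with collagen-induced arthritis (CIA) was compared with colon taken from naïve mice at the same hour. The libraries were chosen by their labels alone. Of the 60 libraries in the count table, 10 carried the time label ZT16, 5 from CIA mice and 5 from naïve mice, and no library of another hour entered the contrast. ZT counts hours from lights on, so ZT16 lies in the dark, active phase that begins at ZT12. The series as a whole sampled CIA and naïve colon at 6 time points, with 5 libraries per treatment and time, to ask how arthritis alters daily gene expression in the gut.

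All mice were males of the inbred strain DBA/1, which is prone to arthritis after immunisation with type II collagen. CIA mice were immunised at 9 to 10 weeks of age with bovine type II collagen at 1 mg/ml in Complete Freund's adjuvant. A boost of the same collagen in saline followed on day 21, and both injections were given at ZT6. Disease appeared from day 18, and the colon was taken 7 days after the first symptoms in each CIA mouse. Naïve mice were housed with the CIA mice and sampled at matching times, and the labels name no sham or adjuvant injection for them. Joint disease, collagen and adjuvant therefore cannot be told apart in the contrast. Each library was made with the TruSeq Stranded mRNA assay from the total RNA of a 5 mm length of mid-colon. Epithelium, lamina propria, muscle and nerve plexus are mixed in such a piece. The labels number the libraries within each group without tying a number to a litter, a cage or a day, so the p-values measure only the spread between these libraries.

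The colon wall is lined by crypts in which Lgr5-marked stem cells divide, and their progeny become absorptive colonocytes, mucus-secreting goblet cells and rarer secretory cells. Below the epithelium lie plasma cells that secrete IgA, macrophages and lymphoid follicles, and outside these are smooth muscle layers with the enteric nervous system between them. Cell division in the crypts, transport and immune genes all follow the daily clock, in which the activators Arntl and Clock drive the repressors Per, Cry and Nr1d1.

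The ZT16 libraries held between 26685338 and 46367201 counts, and the shallowest was naïve replicate 3. Of 27179 genes in the table, 16649 passed the filter on low counts and were tested. Levels are given in CPM, the count scaled to the size of its library, with TMM scaling to correct the totals for composition. Colonocyte and goblet markers were high in every library: Slc26a3, the chloride-bicarbonate exchanger, lay between 306 and 1658 CPM and Muc2, the main colonic mucin, between 4012 and 22768 CPM. The Paneth cell gene Defa24 and the pancreatic gene Cpa1 were at 0 in 9 and 10 of the 10 libraries. Other genes of the small intestine were not absent. Fabp6 lay between 2.13 and 3.80 CPM in CIA and between 1.62 and 21.0 CPM in naïve colon. Apoa1 reached 0.493 CPM in CIA and 3.35 CPM in naïve colon, and Apoa4 0.172 and 0.312 CPM.

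3 libraries stood apart from the others. On a principal component analysis of log2 CPM, the first component (31.2% of the variance) set CIA replicate 5 and naïve replicate 3 apart, and the second (17.7%) set naïve replicate 4 apart. Hoxb13, a homeobox gene of the distal gut, measured 74.3, 79.9, 81.1, 174 and 332 CPM in CIA replicates 1 to 5 and 88.3, 151, 513, 0.127 and 32.8 CPM in naïve replicates 1 to 5. Naïve replicate 4 was thus almost without Hoxb13, while naïve replicate 3 had the most. Car1, a carbonic anhydrase of colonocytes, measured 2127, 1629, 1386, 1176 and 1375 CPM in the CIA libraries and 1060.5, 1549, 1355, 7064 and 2100.5 CPM in the naïve ones, and its highest value was again in naïve replicate 4. The part that position along the colon played in the results was not tested. Counts of list members are therefore also given without CIA replicate 5 and naïve replicate 3, and without all 3 libraries.

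No gene passed an adjusted p of 0.05 in edgeR's quasi-likelihood test, in either direction (0% of 16649 genes tested). At an unadjusted p under 0.05, 1705 genes (10.2%) were found, of which 705 (4.23%) were higher and 1000 (6.01%) lower in CIA. All 5 CIA libraries lay above all 5 naïve libraries in 115 genes (0.691%) and below all of them in 222 genes (1.33%). The median absolute log2 fold change was 0.14, and 246 genes exceeded 1, of which 34 averaged 10 CPM or more. DESeq2, run on the same counts, called 49 genes higher (0.294%) and 82 lower (0.493%), and limma voom with quality weights called 1 gene, lower (0.00601%). Without CIA replicate 3, edgeR called that same gene, 9130208D14Rik, lower. Without the 3 libraries apart, edgeR called 1 gene higher (0.00591%) and 8 lower (0.0473%). The single genes below are therefore described by their levels, and none passed the adjusted threshold in the fit of the 10 libraries.

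**Figure D1:**
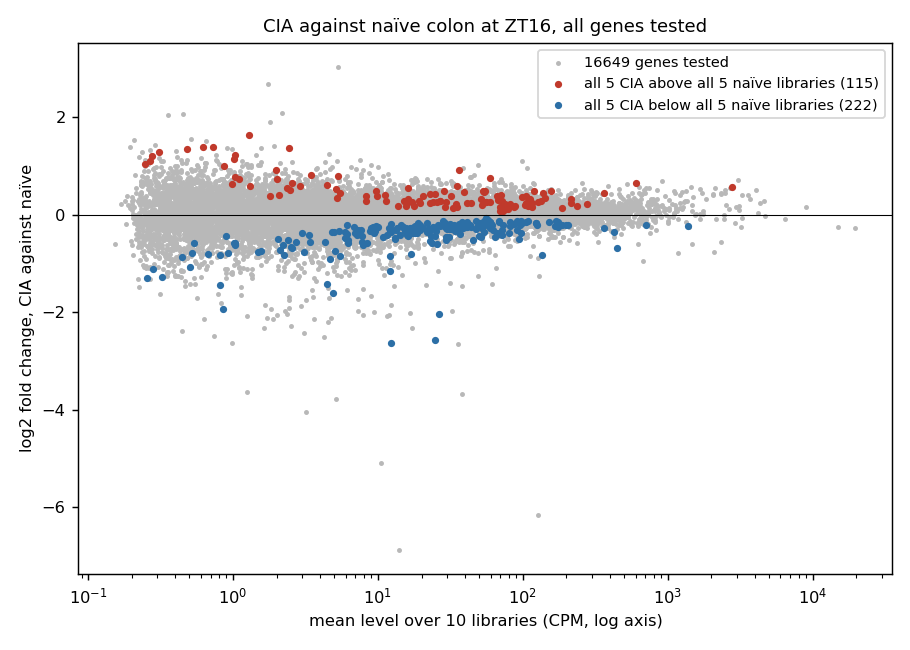
Log2 fold change of CIA against naïve colon at ZT16 (vertical axis) against the mean level over the 10 libraries (CPM, log axis) for the 16649 genes tested. Red points are the 115 genes in which all 5 CIA libraries lay above all 5 naïve libraries and blue points the 222 genes in which they lay below. Red and blue points lie among the grey ones at all levels, and blue points are the more numerous.

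The smallest p of all genes was that of 9130208D14Rik, a transcribed RIKEN gene (chr7:105823257-105856011) that RefSeq classes as miscellaneous RNA. It measured 97.2, 85.9, 117, 84.6 and 105 CPM in the CIA libraries and 163, 182, 158, 197 and 176 CPM in the naïve libraries. The groups did not overlap, and the mean in CIA was 1.78-fold lower. Its log2 fold change was -0.84 ± 0.10 (SE), with an adjusted p of 0.0856 in edgeR. For every other gene tested the adjusted p in edgeR was 0.372 or more.

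Among genes averaging 10 CPM or more, the next lower ones by p included 2 metabolic enzymes. Card10, a scaffold protein that links receptors to NF-kB, measured 28.99, 34.1, 31.8, 29.8 and 34.04 CPM in CIA and 40.2, 39.8, 44.3, 43.1 and 42.9 CPM in naïve colon. Every CIA value was below every naïve value, and the log2 fold change was -0.41 ± 0.07. Isyna1, the enzyme that makes inositol phosphate from glucose phosphate, measured 34.2, 32.5, 40.4, 35.4 and 44.1 CPM in CIA and 56.7, 57.4, 58.2, 49.9 and 46.8 CPM in naïve colon. Its groups were also apart, by a log2 fold change of -0.53 ± 0.10. Selenoo, a mitochondrial selenoprotein, measured 13.8, 13.7, 13.7, 12.7 and 14.2 CPM in CIA and 17.7, 17.8, 19.9, 18.2 and 17.1 CPM in naïve colon, with a log2 fold change of -0.41 ± 0.08. All 5 CIA libraries lay within a narrow band below the naïve ones. Dhodh and the antibody segment Igkv3-12, also among these genes, are given with their lists below.

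Genes higher in CIA by the same rule began with Lama5, the laminin alpha chain of epithelial basement membranes (chr2:180176373-180225904). It measured 145, 146, 142, 138 and 123 CPM in the CIA libraries and 114, 92.8, 96.5, 91.1 and 100.03 CPM in the naïve libraries. The groups did not overlap, and the log2 fold change was 0.49 ± 0.08. Actb, cytoplasmic beta-actin, measured 3505, 3154, 2735, 3563 and 3578 CPM in CIA and 2131, 2291, 2061, 2052 and 2626 CPM in naïve colon. Here too the lowest CIA library was above the highest naïve one, at a log2 fold change of 0.57 ± 0.12. Actb often serves as a reference for scaling in other assays. Rasgrp2, an exchange factor for the small GTPase Rap1, measured 28.8, 29.4, 30.04, 28.5 and 24.6 CPM against 21.8, 22.4, 18.9, 21.2 and 21.7 CPM. Nrbp2, a pseudokinase, measured 190.4, 171, 179.9, 207 and 162 CPM against 147, 115, 130.2, 117 and 145 CPM. Both genes separated the groups, with log2 fold changes of 0.41 ± 0.08 and 0.48 ± 0.10.

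Hcfc1r1, a regulator of the transcriptional cofactor HCF-1, averaged 119 ± 5.82 CPM (SD, n = 5) in CIA and 90.97 ± 9.23 CPM in naïve colon. The pseudogene Gm2830 averaged 19.1 ± 1.47 and 13.002 ± 1.84 CPM, and reads of its parent gene may contribute to it. Among genes under 10 CPM, Colq, the collagen tail that anchors acetylcholinesterase, measured 6.23, 6.405, 7.23, 7.45 and 6.45 CPM in CIA and 4.54, 4.12, 4.01, 3.48 and 3.37 CPM in naïve colon. Its groups were apart by a log2 fold change of 0.79 ± 0.13. Gm10277 measured 2.48, 2.64, 3.65, 4.49 and 4.36 CPM against 1.47, 1.02, 1.21, 1.12 and 1.98 CPM, and its log2 fold change was 1.37 ± 0.25.

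**Figure D2:**
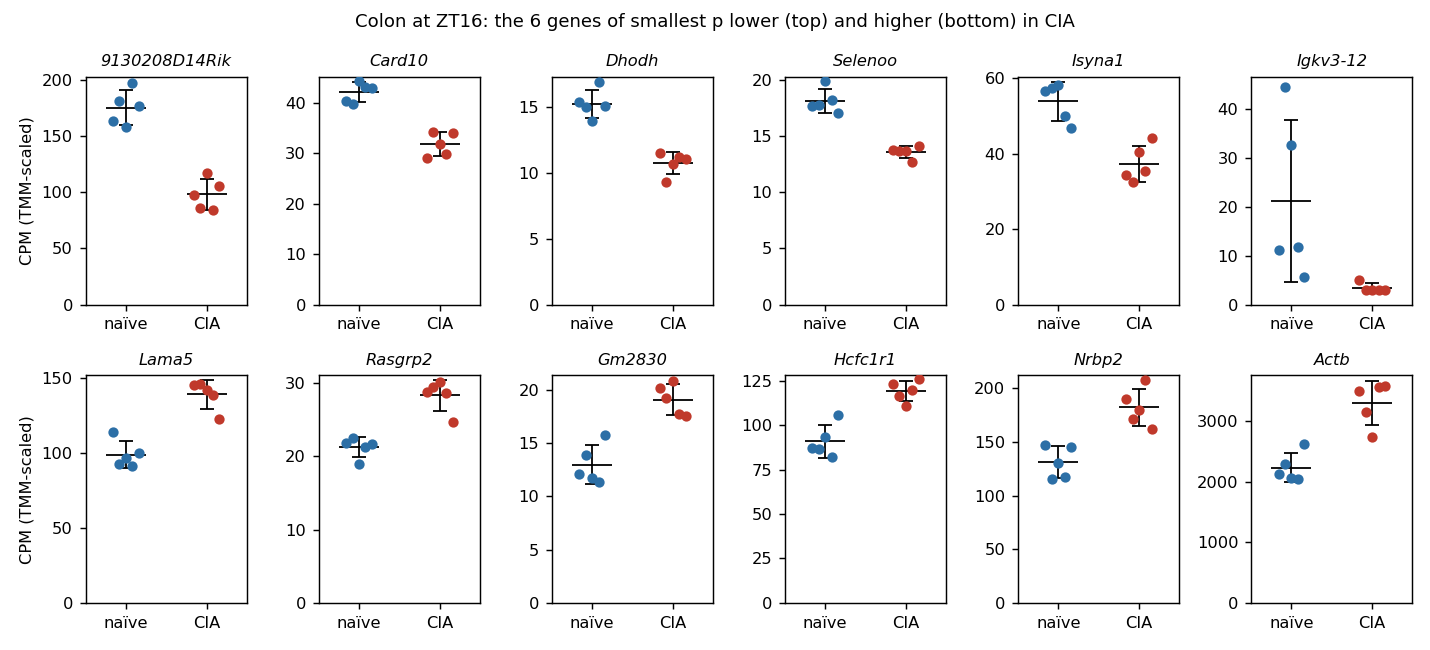
Levels (CPM, TMM-scaled) of the 6 genes of smallest p lower in CIA (top row) and higher in CIA (bottom row), taken from genes averaging 10 CPM or more. Each point is 1 library of 5 per group, and the bar and whiskers give mean ± SD. In each of the 12 genes the CIA and naïve points do not overlap, and the naïve points of Igkv3-12 spread from 5.70 to 44.5 CPM.

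Genes of cell division had lower means in CIA as a group, and none passed the threshold in edgeR's fit of the 10 libraries. In the mitosis list, which holds kinases, motors and cyclins of the dividing cell, all 32 tested members had a lower mean in CIA, with a median log2 fold change of -0.64 against -0.000674 over all genes tested. Of these, 13 had an unadjusted p under 0.05, where 6.01% of all genes did in that direction, and 0 had groups that did not overlap. In the DNA replication list all 40 members were lower in mean, and the median was -0.42. An unadjusted p under 0.05 was found in 21 of them (background 6.01%). Groups were apart in 1, Rfc5 of the clamp loader (background 1.33%). In bulk tissue, fewer dividing cells and less RNA per dividing cell cannot be told apart. All gene lists, here and below, were chosen with earlier results of these data known, and no list was tested. Their counts beside the share over all genes are therefore a description and no independent support for a difference.

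Plk1, a kinase that drives entry into mitosis, measured 48.8, 52.4, 55.01, 53.2 and 58.4 CPM in CIA and 82.3, 77.6, 54.7, 70.8 and 83.04 CPM in naïve colon. Only naïve replicate 3 fell within the CIA range, and the log2 fold change was -0.46 ± 0.11. Mki67, the antigen that marks cycling cells, measured 46.8, 31.6, 49.1, 38.4 and 34.1 CPM in CIA and 85.9, 94.2, 27.6, 40.2 and 82.4 CPM in naïve colon. Naïve replicates 1, 2 and 5 were above every CIA library, while naïve replicates 3 and 4 lay within or below the CIA range. Its log2 fold change was -0.73 ± 0.30.

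Pcna, the sliding clamp of DNA polymerase, measured 39.8, 44.3, 57.2, 54.6 and 59.1 CPM in CIA and 83.2, 73.5, 57.9, 80.7 and 51.4 CPM in naïve colon, with a log2 fold change of -0.44 ± 0.15. Mcm5, part of the replicative helicase, was chosen after its values were seen. It measured 18.1, 16.5, 30.1, 24.01 and 29.6 CPM against 46.6, 50.8, 24.3, 33.4 and 30.4 CPM, and the groups of both genes overlapped. Pold3, a polymerase subunit and the most abundant member with Pcna, had a log2 fold change of -0.06 ± 0.08.

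The mitosis score, the mean log2 CPM of the list's members, was 3.16, 2.73, 3.27, 3.04 and 2.67 in CIA replicates 1 to 5 and 4.01, 4.12, 2.48, 3.07 and 3.95 in naïve replicates 1 to 5. The naïve group thus held both the highest and the lowest scores, and the lowest was the shallow naïve replicate 3. Without CIA replicate 5 and naïve replicate 3, 27 of the 32 mitosis genes and 33 of the 40 replication genes had an unadjusted p under 0.05 and a lower mean in CIA, where 8.34% of all genes did. Without all 3 libraries apart, the counts were 31 and 34, where 8.05% of all genes did, and the medians were -0.99 and -0.60. Cdc20, Plk1, Ccnb1, Kif11, Gtse1 and Mki67, all genes of mitosis or the cycling cell, were among the 8 genes called lower in that fit, beside Creb3l4 and the lambda light chain gene Iglc1. These 8 are named because that fit called them, and the fit was chosen after seeing the data. It left out naïve replicates 3 and 4, which had the lowest mitosis scores of the naïve group. CIA replicate 5, also left out, had the lowest score of the CIA group. The larger mitosis counts without these libraries are thus no independent support for the difference.

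**Figure D3:**
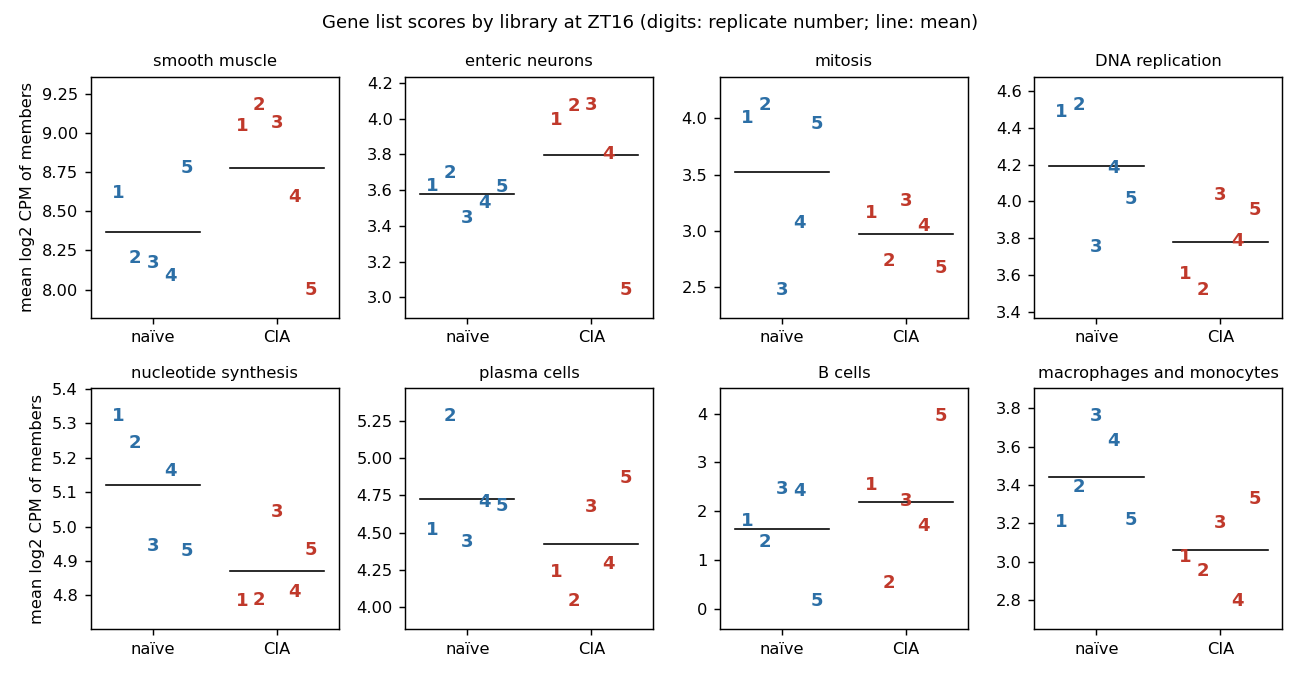
Score of 8 gene lists (mean log2 CPM of the members) in the 5 naïve and 5 CIA libraries at ZT16. Digits give the replicate number and lines the group mean, and each panel has its own vertical axis that does not start at 0. CIA replicate 5 has the lowest smooth muscle score (8.0) and enteric neuron score (3.04) and the highest B cell score (3.95).

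Nucleotide synthesis, which supplies dividing cells with purines and pyrimidines, held more members with separated groups than the lists of division itself. Of its 26 members, 24 had a lower mean in CIA, 14 had an unadjusted p under 0.05 in that direction, and in 4 all CIA libraries lay below all naïve libraries, where 1.33% of all genes did. The median log2 fold change was -0.27. Those 4 genes, named because they are the ones counted, were Dhodh, Shmt1, Impdh2 and Adsl.

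Dhodh, the mitochondrial enzyme of pyrimidine synthesis (chr8:109593244-109608699), measured 11.5, 9.32, 10.7, 11.2 and 11.03 CPM in CIA and 15.4, 15.01, 13.9, 16.9 and 15.1 CPM in naïve colon. Its log2 fold change was -0.51 ± 0.09, and in a single fit of all 60 libraries it was the only gene called at ZT16. Impdh2, which commits purines to guanine nucleotides, measured 56.8, 57.7, 64.1, 55.4 and 66.8 CPM in CIA and 84.2, 85.8, 70.7, 79.5 and 69.96 CPM in naïve colon, with a log2 fold change of -0.38 ± 0.08. Shmt1, a folate enzyme that feeds thymidylate synthesis, measured 24.4, 22.98, 28.6, 22.5 and 25.2 CPM against 39.6, 36.3, 30.6, 32.5 and 31.2 CPM. Adsl, which acts at a pair of steps of purine synthesis, measured 30.2, 26.98, 28.8, 27.4 and 29.7 CPM against 37.5, 36.9, 32.9, 36.99 and 32.4 CPM. In all 4 enzymes the highest CIA library stayed under the lowest naïve one.

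Tyms, thymidylate synthase, is shown with its promoter below and was chosen after its values were seen. It measured 18.1, 14.9, 20.7, 18.5 and 20.99 CPM in CIA and 29.004, 32.2, 21.4, 19.1 and 20.7 CPM in naïve colon, and the groups overlapped, with a log2 fold change of -0.39 ± 0.16. The most abundant members of the list were Nme2, a nucleoside diphosphate kinase, at 116 ± 10.2 and 142 ± 11.7 CPM (SD, n = 5), and Paics, a purine synthesis enzyme, at 80.9 ± 2.82 and 91.3 ± 16.6 CPM. Their log2 fold changes were -0.29 ± 0.08 and -0.17 ± 0.11.

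The promoters of the nucleotide list were searched for the E-box CACGTG, a palindrome that reads the same on both strands and is bound by Myc-Max and by Clock-Arntl. Of 23 members with a promoter in RefSeq (build GRCm38.p6), 5 held it in the 250 bases before the gene start (21.7%): Atic, Impdh2, Nme1, Paics and Tyms. The share was 6.86% of 27025 genes, and 26.3% of 19 genes of the core clock list, where Bhlhe41, Ciart, Cry1, Per1 and Tef held it. A match is a string of letters and not a bound site. The promoters of Tyms, of Adsl (no match) and of a start of the clock output gene Tef are shown to set a member of each list with the motif beside one without it, 5′ to 3′ and with the E-box in capitals.
Tyms promoter (chr5:30073626-30073875, minus strand): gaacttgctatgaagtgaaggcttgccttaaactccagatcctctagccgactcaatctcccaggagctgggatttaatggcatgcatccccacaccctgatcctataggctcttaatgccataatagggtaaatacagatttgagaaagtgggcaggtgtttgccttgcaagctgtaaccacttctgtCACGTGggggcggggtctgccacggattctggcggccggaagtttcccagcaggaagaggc
Adsl promoter (chr15:80948240-80948489, plus strand): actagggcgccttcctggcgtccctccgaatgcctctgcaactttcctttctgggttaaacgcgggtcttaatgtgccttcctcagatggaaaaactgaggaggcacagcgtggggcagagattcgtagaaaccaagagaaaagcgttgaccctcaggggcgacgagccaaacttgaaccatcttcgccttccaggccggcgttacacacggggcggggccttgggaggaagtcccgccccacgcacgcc
Tef promoter (chr15:81811164-81811413, plus strand): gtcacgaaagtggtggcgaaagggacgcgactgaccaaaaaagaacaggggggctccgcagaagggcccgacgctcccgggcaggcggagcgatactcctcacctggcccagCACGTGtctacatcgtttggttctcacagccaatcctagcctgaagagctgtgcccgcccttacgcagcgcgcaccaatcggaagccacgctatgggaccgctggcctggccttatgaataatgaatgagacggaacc

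Of the 4 members with groups apart, Impdh2 held the motif in this window, Adsl and Shmt1 did not, and Dhodh had no entry. In Tyms, which held it, the groups overlapped.

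Ribosome biogenesis genes, which process ribosomal RNA in the nucleolus, were lower in mean in 37 of 38 members, but by little, with a median log2 fold change of -0.14. An unadjusted p under 0.05 was found in 8 (background 6.01%). Groups were apart in 1 member of the list, the RNA polymerase I subunit Polr1b (background 1.33%). The most abundant members of the list, nucleolin (Ncl) and nucleophosmin (Npm1), differed by -0.07 ± 0.09 and -0.16 ± 0.08 on the log2 scale, and both overlapped.

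Stem cell and epithelial Wnt target genes were lower in mean in 17 of 20 members, with a median of -0.27 and 5 members at an unadjusted p under 0.05, where 6.01% of all genes were. In 2 of them, named for that reason, the groups were apart, where 1.33% of all genes were in that direction. Lgr5, the receptor that marks crypt stem cells, measured 1.98, 1.34, 2.12, 2.18 and 2.16 CPM in CIA and 2.64, 3.12, 2.92, 3.72 and 3.13 CPM in naïve colon, with a log2 fold change of -0.67 ± 0.18. Ephb2, a receptor that positions cells along the crypt, measured 41.9, 38.2, 45.9, 38.96 and 46.1 CPM against 65.5, 59.4, 47.8, 58.9 and 52.8 CPM, with a log2 fold change of -0.43 ± 0.09. The most abundant members, Slc12a2 (the basolateral Na-K-Cl cotransporter of crypt cells) and Lrig1 (a brake on growth factor receptors), differed by -0.46 ± 0.15 and -0.21 ± 0.09, and both overlapped.

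**Figure D4:**
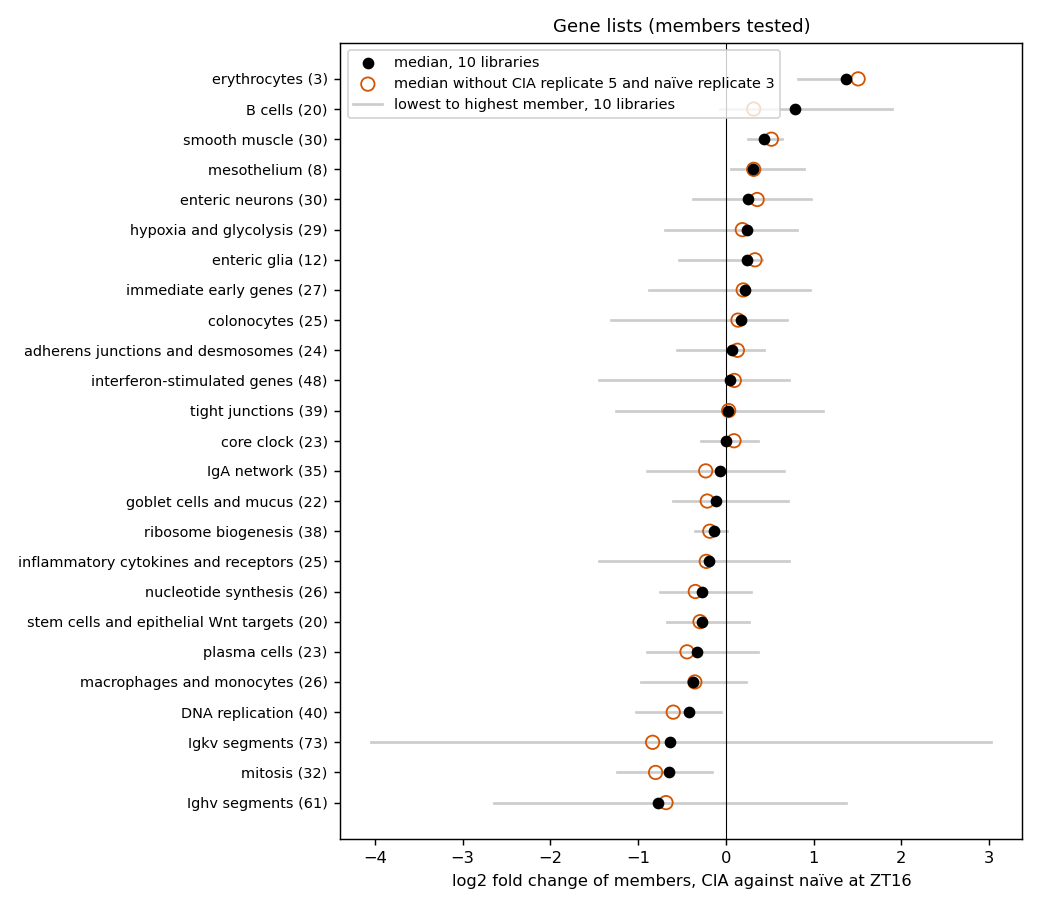
Median log2 fold change of CIA against naïve at ZT16 over the tested members of each gene list (number in brackets). Black points use 10 libraries, open circles leave out CIA replicate 5 and naïve replicate 3, and grey lines run from the lowest to the highest member. The lists of cell division, antibody segments and macrophages lie left of 0 and those of smooth muscle and enteric neurons right of 0 with both sets of libraries.

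Contractile and nerve genes were higher in mean. All 30 smooth muscle genes had a higher mean in CIA, with a median log2 fold change of 0.43, a range of 0.26 to 0.64, 8 members at an unadjusted p under 0.05 (background 4.23%) and 0 with groups apart. Myh11, the smooth muscle myosin heavy chain, measured 5992, 5788, 5731, 3884 and 2304 CPM in CIA and 3569.6, 2696, 2997, 2601 and 4839 CPM in naïve colon. CIA replicates 1, 2 and 3 were above every naïve library, and CIA replicate 5 was below every naïve library. The log2 fold change was 0.50 ± 0.27. Tagln, the actin-binding protein transgelin, gave 0.50 ± 0.24.

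The summed level of the smooth muscle list was 39403, 42709, 39473, 28593 and 18650.00 CPM in CIA replicates 1 to 5 and 29385, 20596, 20619, 19065 and 33446 CPM in naïve replicates 1 to 5. Without CIA replicate 5 and naïve replicate 3, 24 of the 30 genes had an unadjusted p under 0.05 and a higher mean, where 7.55% of all genes did, and the median was 0.52. CIA replicate 5 had the lowest sum of all 10 libraries, and the choice to leave it out was made after seeing the data. The larger count without it is therefore no independent support for the difference. How much muscle a 5 mm piece of wall carries was not recorded in the labels.

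When the score of the smooth muscle list entered the fit as a covariate, the median of the mitosis list was -0.85, that of DNA replication -0.40 and that of nucleotide synthesis -0.24. At an unadjusted p under 0.05, 24, 10 and 7 of their members were lower in that fit, against 13, 21 and 14 without the covariate, where 5.8% and 6.01% of all genes were. In the plasma cell and macrophage lists described below, 2 and 5 members were lower with the covariate and 7 and 11 without it. The medians of the enteric neuron and enteric glia lists changed sign in that fit, to -0.02 and -0.22.

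Enteric neuron genes were higher in mean in 27 of 30 members, with a median of 0.26 and 1 member at an unadjusted p under 0.05 (background 4.23%). That member was Prph, the neuronal intermediate filament peripherin. It measured 56.7, 54.5, 58.8, 64.8 and 33.2 CPM in CIA and 44.1, 43.1, 34.2, 42.9 and 46.3 CPM in naïve colon, and CIA replicate 5 lay below all naïve libraries while the other 4 lay above them. Scg2, a secretory granule protein, and Vip, a neuropeptide that relaxes gut muscle, were the most abundant members and differed by 0.10 ± 0.24 and 0.07 ± 0.15. Enteric glia genes had a median of 0.24, with Cryab, a small heat shock protein, at 0.41 ± 0.21 and Erbb3, a neuregulin receptor that epithelium also expresses, at -0.36 ± 0.17. In CIA replicate 5 the neuron score was 3.04, against 3.80 to 4.08 in the other CIA libraries and 3.45 to 3.69 in naïve ones.

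Mesothelium and red cell genes were examined as signs of outer tissue and blood. All 8 mesothelium genes had a higher mean in CIA and 0 had an unadjusted p under 0.05. Msln, mesothelin, ranged from 2.62 to 17.1 CPM in CIA and 2.82 to 15.8 CPM in naïve colon, and Krt19, a keratin that epithelium shares, differed by 0.17 ± 0.19. The 3 tested red cell genes were all under 3 CPM. Their median log2 fold change was 1.37. Hbb-bs, a beta-globin with near-identical copies, measured 0.811, 0.985, 1.32, 0.486 and 0.858 CPM in CIA and 0.349, 0.223, 0.454, 0.465 and 0.2201 CPM in naïve colon, and the groups were apart. Alas2, the heme synthesis enzyme of red cell precursors, measured 0.532, 1.84, 2.83, 0.486 and 0.883 CPM against 0.424, 0.134, 0.606, 1.01 and 0.374 CPM, and Hba-a1, an alpha-globin, gave 0.82 ± 0.43.

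Antibody genes were lower in mean in CIA. In the plasma cell list 21 of 23 members were lower in mean, 7 at an unadjusted p under 0.05 (background 6.01%), with a median of -0.33. Igha, the heavy chain constant region of IgA, measured 1591, 1743, 2494, 1934 and 1691 CPM in CIA and 2161, 4806, 2265, 2519.6 and 2145 CPM in naïve colon. Naïve replicate 2 had the most Igha, and CIA replicate 3 was the only CIA library within the naïve range. The log2 fold change was -0.56 ± 0.24, with an adjusted p of 0.462 in edgeR. Igkc, the kappa light chain constant region, measured 749.98, 761, 1117, 801 and 874 CPM against 1023, 2763, 1237, 1300.4 and 1154 CPM, with a log2 fold change of -0.80 ± 0.26, and CIA replicate 3 was again the library that overlapped.

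Kappa variable segments, the gene pieces from which each B cell assembles its light chain, were lower in mean in 60 of 73 tested segments, with a median of -0.64. An unadjusted p under 0.05 was found in 20 lower and 1 higher segment, and 4 had all CIA libraries below all naïve ones, where 6.01% and 4.23% of all genes had such a p and 1.33% lay apart in that direction. Igkv3-12 measured 5.09, 2.93, 3.08, 2.94 and 2.92 CPM in CIA and 11.1, 44.5, 32.8, 11.8 and 5.702 CPM in naïve colon, with a log2 fold change of -2.64 ± 0.51. Igkv1-110 measured 10.6, 12.05, 13.5, 7.55 and 8.02 CPM against 26.4, 102, 39.8, 17.04 and 28.6 CPM, and its groups were apart as well. Igkv10-96 measured 18.2, 12.05, 28.9, 16.8 and 9.88 CPM against 49.9, 50.7, 24.7, 70.9 and 32.01 CPM, and naïve replicate 3 lay within the CIA range. Segments resemble each other in sequence, so counts may be split between them.

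Heavy chain variable segments were lower in mean in 53 of 61 tested segments, with a median of -0.77 and 13 at an unadjusted p under 0.05 (background 6.01%). Groups were apart in 1 segment (background 1.33%). The only segment with groups apart, Ighv1-77, measured 0.405, 0.403, 0.461, 0.417 and 0.0736 CPM in CIA and 0.947, 1.803, 1.48, 0.929 and 1.67 CPM in naïve colon. The most abundant, Ighv2-9 and Ighv9-3, differed by -1.09 ± 0.40 and -1.52 ± 0.54 and overlapped. Without CIA replicate 3, whose kappa segment score of 2.27 stood above the 0.73 to 0.99 of the other CIA libraries, the median of the kappa segments was -1.23. Over all alternative fits it ran from -1.23 to -0.59. The fit without CIA replicate 3 is given because of that high score, so its lower median is no independent support for the difference.

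B cell genes went the other way in mean but with wide spread. Of 20 members, 19 had a higher mean in CIA and 2 an unadjusted p under 0.05 (background 4.23%), at a median of 0.79. The list score was 2.53, 0.52, 2.20, 1.70 and 3.95 in CIA and 1.80, 1.37, 2.45, 2.40 and 0.15 in naïve replicates, so the groups overlapped over most of the scale. Ms4a1, which encodes CD20 and was chosen after its values were seen, measured 5.6003, 0.694, 4.88, 2.22 and 14.3 CPM in CIA and 3.06, 1.71, 4.39, 5.15 and 0.837 CPM in naïve colon. Without CIA replicate 5 and naïve replicate 3 the median of the list was 0.32, without all 3 libraries apart 0.73, and with the muscle score as a covariate 1.45. With that covariate 15 members were higher at an unadjusted p under 0.05, where 6.38% of all genes were. Spib, a B cell and epithelial transcription factor, and Cxcl13, the chemokine of follicles, were its most abundant members and differed by 0.62 ± 0.27 and -0.07 ± 0.31. Whether a piece of colon held a lymphoid follicle was not recorded in the labels.

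In the IgA network list, which covers antigen presentation, homing and IgA transport, 3 of 35 members were lower and 0 higher at an unadjusted p under 0.05, where 6.01% and 4.23% of all genes were, with a median of -0.07. Pigr, the receptor that carries IgA across the epithelium, measured 4005, 3350.4, 3971, 4553 and 5201 CPM in CIA and 4326, 4548, 5604, 2798 and 3458 CPM in naïve colon. The groups overlapped throughout, with a log2 fold change of 0.02 ± 0.19. H2-Aa, an MHC class II chain, gave -0.05 ± 0.20.

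Macrophage and monocyte genes were lower in mean in 24 of 26 members, 11 at an unadjusted p under 0.05 (background 6.01%) and 2 with groups apart (background 1.33%), with a median of -0.37. Ly6c2, a surface protein of inflammatory monocytes, measured 5.65, 6.05, 11.8, 8.29 and 11.5 CPM in CIA and 14.1, 16.9, 18.6, 12.1 and 16.1 CPM in naïve colon, with a log2 fold change of -0.85 ± 0.22. Fcgr3, a receptor for IgG, measured 6.74, 6.52, 6.71, 5.02 and 6.03 CPM against 7.28, 9.35, 13.9, 8.81 and 8.23 CPM, with -0.61 ± 0.18. These are the 2 members with groups apart. The most abundant members, Lyz2 (lysozyme) and Cd14 (a lipopolysaccharide co-receptor), differed by -0.04 ± 0.22 and -0.13 ± 0.19. C5ar1, the receptor of complement C5a, is in none of the lists and was chosen after its values were seen. It measured 1.72, 1.93, 2.5997, 1.76 and 1.72 CPM in CIA and 3.19, 2.72, 3.26, 3.17 and 3.35 CPM in naïve colon, and these groups did not overlap.

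Interferon-stimulated genes lay near 0 as a list, with a median of 0.05 over 48 members. At an unadjusted p under 0.05, 2 were higher and 1 lower (background 4.23% and 6.01%). Irf7, the master regulator of type I interferon, measured 463, 359, 345, 313 and 371 CPM in CIA and 169, 288, 151, 324 and 405 CPM in naïve colon, and the groups overlapped. Irf1, an interferon-gamma responsive factor, gave -0.20 ± 0.16. The single member with groups apart was Cxcl10, a chemokine for T cells, at 0.456, 0.493, 0.461, 0.185 and 0.589 CPM in CIA and 0.797, 1.16, 0.795, 1.39 and 1.81 CPM in naïve colon, with a log2 fold change of -1.45 ± 0.35. All its values were under 2 CPM, and groups were apart in that direction in 1.33% of all genes.

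The list of inflammatory cytokines and receptors had a median of -0.19 over 25 tested members of 36 in the table. At an unadjusted p under 0.05, 1 was higher and 1 lower (background 4.23% and 6.01%). Il18, an epithelial cytokine, differed by 0.01 ± 0.32. Il1rn, the antagonist of interleukin-1, differed by 0.01 ± 0.44.

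Lists of differentiated epithelium had medians near 0. The colonocyte list had a median of 0.17 over 25 members, with 1 higher and 1 lower at an unadjusted p under 0.05 (background 4.23% and 6.01%). Krt8, a keratin of simple epithelium, and Muc3, a membrane mucin, differed by 0.28 ± 0.19 and 0.23 ± 0.30. The one member with groups apart (background 0.691%) was Krt18, given with the desmosome genes below. Slc16a3, a lactate exporter from the list of bile acid and short-chain fatty acid handling, was chosen after its values were seen and also had groups apart, at 39.5, 40.6, 39.1, 65.5 and 52.1 CPM in CIA and 36.2, 23.7, 27.8, 10.2 and 27.8 CPM in naïve colon. Its log2 fold change was 0.91 ± 0.28. The goblet and mucus list had a median of -0.11, with Muc2 at -0.26 ± 0.38 and Clca1, a secreted protease of mucus, at 0.40 ± 0.30.

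Tight junctions seal neighbouring epithelial cells, and claudins and junctional adhesion molecules are their membrane proteins. The tight junction list was centred on 0, with a median of 0.02 over 39 members. At an unadjusted p under 0.05, 2 members were higher and 2 lower, where 4.23% and 6.01% of all genes were. Cldn4, a claudin of surface epithelium, measured 85.04, 159, 96.3, 174 and 158 CPM in CIA and 67.8, 87.3, 47.04, 27.9 and 82.1 CPM in naïve colon. All CIA libraries but replicate 1 were above every naïve library, and the log2 fold change was 1.11 ± 0.31. The adjusted p was 0.401 in edgeR and 0.0317 in DESeq2, so the call depended on the method. An exact permutation test on its log2 CPM gave a two-sided p of 0.0159, not adjusted for the number of genes. Without the 3 libraries apart its log2 fold change was 0.70.

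Jam3, a junctional adhesion molecule, measured 25.1, 28.7, 26.6, 21.6 and 17.5 CPM in CIA and 20.7, 20.7, 20.8, 18.2 and 21.3 CPM in naïve colon, with a log2 fold change of 0.23 ± 0.12. CIA replicates 1 to 4 were above every naïve library and CIA replicate 5 below every one. Cldn4 and Jam3 were singled out by the study on libraries that include these, so their direction is no independent evidence. The list's most abundant members, Myl9 and Mylk, encode the myosin light chain and its kinase, which smooth muscle shares, and differed by 0.56 ± 0.22 and 0.49 ± 0.27. In the fit with that covariate, Jam3 gave 0.02, Myl9 0.17 and Mylk -0.08, while Cldn4 gave 1.11.

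Adherens junction and desmosome genes had a median of 0.07, with 3 of 24 higher and 1 lower at an unadjusted p under 0.05 (background 4.23% and 6.01%). In 2 of them all CIA libraries lay above all naïve libraries, where 0.691% of all genes did. The 2 members with groups apart, named for that reason, were Krt18, the partner of Krt8, at 413, 409, 378, 415 and 465 CPM in CIA and 358, 373, 244, 206 and 353 CPM in naïve colon, and Pkp2, a desmosomal plaque protein, at 59.6, 59.9, 61.97, 60.8 and 62.2 CPM against 58.6, 48.3, 46.1, 54.7 and 47.8 CPM. Their log2 fold changes were 0.44 ± 0.16 and 0.25 ± 0.07.

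The core clock list had a median log2 fold change of 0.01 over 23 tested members of 24. In either direction, 1 member had an unadjusted p under 0.05, where 10.2% of all genes did. That member was Cry2, a repressor of Clock and Arntl, at 94.8, 89.5, 80.5, 118 and 115 CPM in CIA and 75.7, 64.7, 102, 70.8 and 79.6 CPM in naïve colon, with a log2 fold change of 0.34 ± 0.14. The groups overlapped in Cry2 and in every other clock gene tested.

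Several clock genes spread widely within each group. Dbp, a clock output factor whose level swings widely over the day, measured 41.7, 7.95, 14.05, 8.36 and 11.99 CPM in CIA and 12.2, 4.83, 40.98, 8.51 and 35.6 CPM in naïve colon. Nr1d1, the repressor REV-ERB alpha, measured 56.97, 12.9, 25.6, 16.2 and 20.8 CPM in CIA and 26.5, 13.1, 52.4, 14.7 and 54.5 CPM in naïve colon. The libraries high in Dbp were also high in Nr1d1: CIA replicate 1 and naïve replicates 3 and 5. Arntl, the activator BMAL1 that peaks opposite to these, measured 9.88, 27.5, 21.1, 25.7 and 27.2 CPM in CIA and 15.5, 45.7, 18.3, 25.04 and 9.796 CPM in naïve colon, and CIA replicate 1 and naïve replicate 5 were its lowest values. The log2 fold changes were -0.28 ± 0.63, -0.28 ± 0.49 and -0.04 ± 0.39.

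The repressors Per1, Per2, Per3 and Cry1 differed by -0.15 ± 0.21, -0.03 ± 0.19, -0.08 ± 0.27 and 0.08 ± 0.12. The activators Clock and Npas2 differed by 0.00 ± 0.09 and 0.34 ± 0.24. Among the orphan nuclear receptors, Nr1d2 and Rora gave -0.13 ± 0.36 and 0.37 ± 0.42, and Rora was under 1 CPM in every library. The output factors Hlf, Tef and Nfil3 gave 0.32 ± 0.20, 0.01 ± 0.25 and -0.20 ± 0.45. For Bhlhe40, Bhlhe41 and Ciart, which repress Clock and Arntl, the values were 0.15 ± 0.13, 0.01 ± 0.36 and -0.02 ± 0.61. The kinases Csnk1d and Csnk1e and the F-box protein Fbxl21, which set the stability of Per and Cry, gave 0.14 ± 0.09, 0.07 ± 0.12 and 0.19 ± 0.38. The standard errors were widest for Ciart, Dbp, Nr1d1 and Nfil3, in which a difference of the size of the error could not be detected with 5 libraries a group.

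Immediate early genes, which respond within minutes to growth factors, stretch or handling, had a median of 0.22, with 6 of 27 members higher and 0 lower at an unadjusted p under 0.05, and 3 with groups apart (Ccn2, Dusp1 and Ier3), where 4.23% of all genes were higher at that p and 0.691% were apart. Ccn2, the connective tissue growth factor, measured 72.7, 116, 62.1, 65.1 and 56.8 CPM in CIA and 51.8, 41.1, 50.3, 41.6 and 38.3 CPM in naïve colon, with a log2 fold change of 0.74 ± 0.18. Its relative Ccn1 measured 50.4, 69.5, 58.1, 39.5 and 38.4 CPM against 22.6, 21.5, 28.9, 39.5 and 18.9 CPM, with a log2 fold change of 0.96 ± 0.22, and naïve replicate 4 lay within the CIA range. Ccn1 was the gene called higher without the 3 libraries apart. Dusp1, a phosphatase that ends MAP kinase signals, measured 28.2, 39.2, 27.6, 38.4 and 32.96 CPM against 25.5, 25.5, 24.3, 24.6 and 19.8 CPM, and its groups were apart. The most abundant members, Klf4 and Jund, differed by 0.33 ± 0.22 and 0.52 ± 0.14. Ccn1, Ccn2 and Dusp1 were chosen after their values were seen.

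Hypoxia and glycolysis genes were higher in mean in 27 of 29 members, 7 at an unadjusted p under 0.05 (background 4.23%), with a median of 0.24. In 2 members, named for that reason, the groups were apart, where 0.691% of all genes were in that direction. Egln1, the prolyl hydroxylase that senses oxygen, measured 110.4, 136, 112, 132 and 134 CPM in CIA and 108, 102, 108, 84.5 and 98.2 CPM in naïve colon. Pfkp, a phosphofructokinase, measured 211, 231, 212, 286 and 258 CPM against 205, 199, 195, 178 and 186 CPM. Their log2 fold changes were 0.32 ± 0.09 and 0.32 ± 0.09. Aldoa (aldolase) and Ldha (lactate dehydrogenase), the most abundant members, gave 0.20 ± 0.10 and 0.29 ± 0.13.

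Counts at an unadjusted p under 0.05 for the other lists described were also made without 2 and without 3 of the libraries apart, where 8.34% and 8.05% of all genes were lower and 7.55% and 7.21% higher. Lower members numbered 15 and 12 for nucleotide synthesis, 15 and 10 for ribosome biogenesis and 6 and 7 for stem cells and Wnt targets. They numbered 6 and 11 for plasma cells, 18 and 20 for kappa segments, 11 and 13 for heavy chain segments and 9 and 6 for macrophages and monocytes. Higher members numbered 15 and 16 for enteric neurons, 6 and 8 for immediate early genes and 7 and 5 for hypoxia and glycolysis. For tight junctions 9 and 7 were higher and 4 and 3 lower. The libraries left out were chosen after seeing the data, and CIA replicate 5 among them had the lowest enteric neuron score.

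The other 32 of the 57 lists covered stroma, endothelium, transport, other leukocytes, metabolism and protein synthesis. None of their members passed the threshold in edgeR's fit of the 10 libraries. Their medians ran from -0.88 in the 3 lambda variable segments to 0.29 in muscle calcium and receptor signalling. Cytosolic ribosomal proteins had a median of 0.01 over 67 members.

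The ZT16 contrast was set against the other 5 time points in 1 fit of all 60 libraries. In that fit 1 gene (0.00554%) was called at ZT16, Dhodh, and it was lower, against 516 higher (2.86%) and 1159 lower (6.42%) of 18057 genes at ZT12 and 1109 higher (6.14%) and 1242 lower (6.88%) at ZT20. The difference in effect itself was then tested, as the effect at ZT16 minus the mean effect at the other 5 time points. It passed the threshold in 1 gene (0.00554%), and 535 genes (2.96%) had an unadjusted p under 0.05. Against ZT12 alone and against ZT20 alone, no gene differed in effect at the adjusted threshold, and 829 (4.59%) and 1014 genes (5.62%) had an unadjusted p under 0.05.

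That 1 gene was Snord33, a small nucleolar RNA that guides ribosomal RNA methylation (chr7:45126864-45126945). At ZT16 it averaged 0.237 ± 0.0671 CPM (SD, n = 5) in CIA and 0.0837 ± 0.0324 CPM in naïve colon. At ZT12 it averaged 0.163 ± 0.0376 CPM in CIA and 0.269 ± 0.0835 CPM in naïve colon, and at ZT20 0.233 ± 0.0162 and 0.252 ± 0.0304 CPM. The difference in effect was 2.04 on the log2 scale, with an adjusted p of 0.0237 in edgeR's quasi-likelihood test. The call was lost with limma voom (adjusted p = 0.179), with the replicate block (adjusted p = 0.998) and without any 1 of CIA replicates 1, 4 and 5 and naïve replicates 1, 2, 3 and 5 (edgeR adjusted p from 0.0596 to 0.256), and with halved counts Snord33 was not among the genes tested. Snord33 reached at most 0.419 CPM in any library, was left out of the ZT16 fit by the filter on low counts, and is encoded inside an intron of a ribosomal protein gene whose reads could reach it.

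None of the next genes by p passed in that test. Acot1, an acyl-CoA thioesterase, averaged 1.57 ± 0.334 CPM in CIA and 3.11 ± 2.21 CPM in naïve colon at ZT16, where the naïve mean rested on replicate 4 at 6.80 CPM. Its difference in effect was -1.21. The kappa segment Igkv14-130 was at 9.54 and 4.95 CPM in CIA replicates 2 and 4 and at 1.05 CPM or less in the other 8 libraries, and 4930453N24Rik was higher in all 5 CIA libraries at 31.3, 27.2, 26.7, 29.3 and 32.8 CPM against 23.4, 23.3, 24.8, 24.8 and 25.3 CPM.

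The 8 lists plotted by time, a choice made with their values known, had medians on the same side of 0 at all 6 hours. The mitosis list had a median log2 fold change of -0.23, -0.29, -0.40, -0.72, -0.65 and -0.64 at ZT0, 4, 8, 12, 16 and 20, and 13, 0 and 12 of its 32 members were called lower at ZT12, ZT16 and ZT20. Nucleotide synthesis had -0.44, -0.27 and -0.38 at those 3 hours, with 12, 1 and 16 of 26 members called lower. Smooth muscle had 0.57, 0.42 and 0.81, with 5, 0 and 16 of 30 called higher. Enteric neurons had 0.36, 0.25 and 0.97, with 21 of 30 called higher at ZT20 alone of these hours. Of all genes, 6.42%, 0.00554% and 6.88% were called lower and 2.86%, 0% and 6.14% higher at ZT12, ZT16 and ZT20. Each hour has its own CIA and naïve libraries.

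In the test of the difference, no member of any list passed the threshold. The B cell list had medians of -0.38, -0.44, -1.28, 0.14, 0.79 and -0.51 at the 6 hours in order, with 0 members called at any of them. Interferon-stimulated genes had -0.25, -1.22, -0.25, -0.89, 0.05 and 0.18, with 16 and 11 of 48 called lower at ZT4 and ZT12 and 0 at ZT16 and the other 3 hours. Of all genes, 6.42% were called lower at ZT12 and 0.00554% at ZT16, and the share at ZT4 was not counted. In the test of the difference 8 of the 48 interferon-stimulated genes had an unadjusted p under 0.05 for a higher effect at ZT16. Over all genes the share in both directions together was 2.96%. Other lists held as many or more: 10 of 25 for cholesterol synthesis and uptake, 9 of 79 for heavy chain segments and 8 of 91 for kappa segments.

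**Figure D5:**
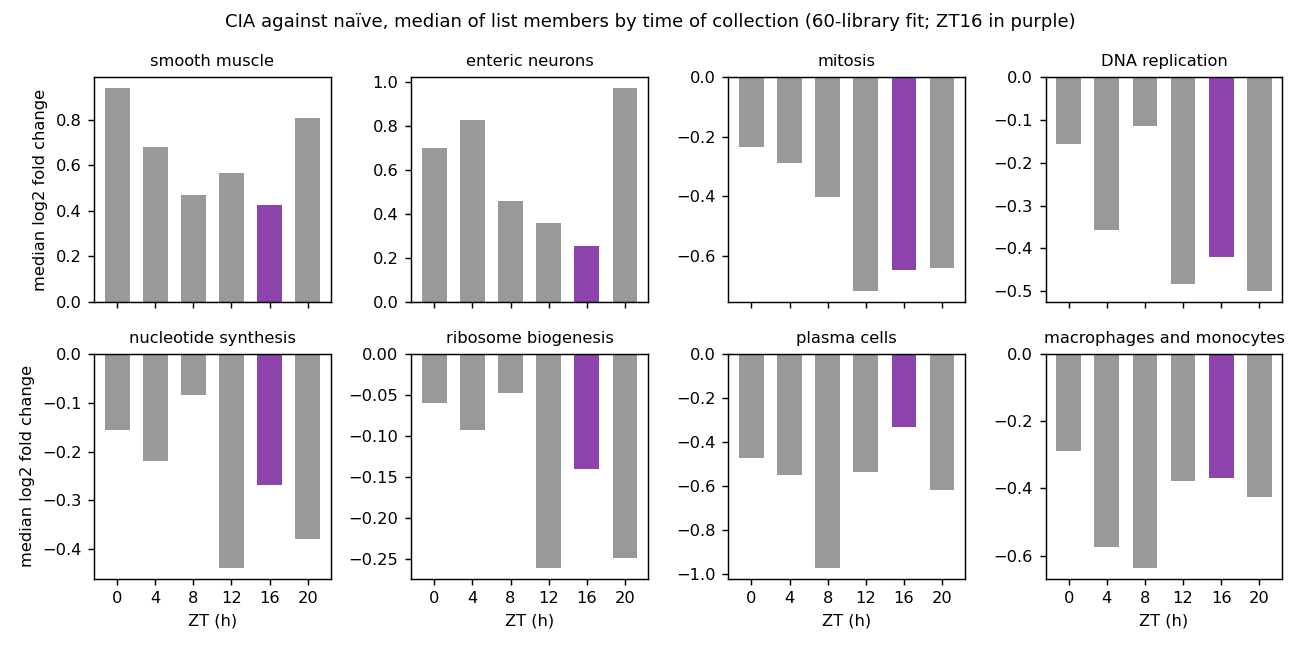
Median log2 fold change of CIA against naïve colon over the members of 8 lists at each time of collection (ZT in hours), from 1 fit of 60 libraries. Bars start at 0, ZT16 is purple, and each panel has its own vertical axis. The ZT16 medians were -0.65 for mitosis, 0.42 for contractile genes and 0.25 for nerve genes, on the same side of 0 as at the other hours.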

How the data were processed

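The authors deposited a table of raw counts per Entrez gene for 60 colon libraries, with no normalization. Per the submitters' processing notes, bcl2fastq 2.17.1.14, Trimmomatic 0.36 and STAR 2.5.3 were used on mouse build mm10, and the study's methods name Rsubread for counting. Among counts of 1 to 20, 72.4% to 76.9% were even, so mates of a pair may have been counted separately, and halved counts were run as an alternative. Names came from RefSeq (GRCm38.p6) for 25275 of 27179 genes and from GENCODE for 18, and 1886 unnamed genes held 0.521% of the ZT16 counts.

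The 10 ZT16 libraries were grouped by their labels and fitted with edgeR 4.0.16 (TMM, filterByExpr with a minimum count of 10, quasi-likelihood F test, Benjamini-Hochberg adjusted p under 0.05). DESeq2 1.42.0 and limma 3.58.1 were alternatives, in R 4.3.3. Fits were tested on simulated data. Differences between time points used 1 fit of 60 libraries. List scores are means of log2 CPM (prior count 2), and no list was tested. Totals of 26685338 to 46367201 set the precision, and 3 counts equal 0.0629 to 0.114 CPM. Exact permutation tests over all splits of 5 and 5 libraries were two-sided.

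Named genes were the 6 of smallest p per direction with a mean of at least 10 CPM, the 8 of smallest p at any level, the 2 most abundant members of each list described, the tested members of the core clock list, Cldn4 and Jam3, and the first genes of the difference test. Others are said to be chosen after their values were seen. Some genes that the rule would name are not reported here. The members and lists were chosen with earlier results of these data known.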

Additional observations from a re-analysis of the deposited data

Results flagged for a closer look

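In 26 of 270 groups of 5 values (the named genes and list scores in each treatment), 1 library lay farther from its neighbour than Dixon's limit of 0.71 of the group's range allows. Chance alone exceeds that limit in about 1 in 20 groups when values are normally distributed and groups independent. Here the groups share the same libraries and the gene values are CPM without a log. The count of 26 therefore does not show an excess. Each value is set beside the median of its own group. CIA replicate 1 stood apart in Dbp at 41.7 CPM against 11.99 (highest), Igkv3-12 at 5.09 CPM against 2.94 (highest) and Nr1d1 at 56.97 CPM against 20.8 (highest). CIA replicate 2 stood apart in Ccn2 at 116 CPM against 65.1 (highest) and Lgr5 at 1.34 CPM against 2.12 (lowest). CIA replicate 3 stood apart in C5ar1 at 2.5997 CPM against 1.76 (highest) and the Igkv segment score at 2.27 against a median of 0.97 (highest). CIA replicate 5 stood apart in Clca1 at 5151 CPM against 3381 (highest), Ighv1-77 at 0.0736 CPM against 0.405 (lowest), Npm1 at 229.8 CPM against 211 (highest), Rasgrp2 at 24.6 CPM against 28.8 (lowest) and the enteric neuron score at 3.04 against a median of 3.99 (lowest). Naïve replicate 2 stood apart in C5ar1 at 2.72 CPM against 3.19 (lowest), Igha at 4806 CPM against 2265 (highest), Ighv9-3 at 30.97 CPM against 7.43 (highest), Igkc at 2763 CPM against 1237 (highest) and Igkv1-110 at 102 CPM against 28.6 (highest). Naïve replicate 3 stood apart in Prph at 34.2 CPM against 43.1 (lowest). Naïve replicate 4 stood apart in Acot1 at 6.799 CPM against 2.39 (highest), Csnk1e at 34.7 CPM against 25.8 (highest), Jam3 at 18.2 CPM against 20.7 (lowest), Klf4 at 361 CPM against 828 (lowest), Krt8 at 2467 CPM against 4532 (lowest), Nme2 at 122 CPM against 143 (lowest) and Slc12a2 at 305 CPM against 202 (highest). Naïve replicate 5 stood apart in Dusp1 at 19.8 CPM against 24.6 (lowest).

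Snord33 was the gene whose CIA against naïve difference at ZT16 differed from the mean of the other 5 time points, by 2.04 on the log2 scale in the 60-library fit. Its level at ZT16 was 0.237 ± 0.0671 CPM (SD, n = 5) in CIA and 0.0837 ± 0.0324 CPM in naïve colon, a few counts per library, and no other gene passed that test.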

How the results depend on the processing

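The count of 0 genes at ZT16 held with RLE and upper quartile scaling, robust edgeR, no filter on low counts, a mean of at least 5 CPM, halved counts, the smooth muscle covariate and 2 libraries left out, where 1429 to 2661 genes had an unadjusted p under 0.05. DESeq2 called 131 genes, 49 higher and 82 lower, of which 28 calls were of list members. The fit of 60 libraries called 1 gene, lower, a list member (Dhodh), and limma voom with quality weights called 1, lower. Without the 3 libraries apart edgeR called 9 genes, 1 higher and 8 lower, of which 7 were list members. This alternative and the one without 2 libraries were chosen after seeing the data. The share of list members among all genes tested was not counted, so 28 and 7 do not show that calls gather in the lists. Leaving out 1 library at a time gave 0 to 1 gene, the 1 without CIA replicate 3. The difference between time points gave 0 genes with limma voom, with a mean of at least 5 CPM, with halved counts and against ZT12 or ZT20 alone, and 0 to 1 on leaving out 1 library. It gave 1 gene without CIA replicate 2 or 3 or naïve replicate 4, and 0 without any of the other 7 libraries. The causes were not tested.

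Same-numbered libraries did not deviate together (correlations of -0.25 to 0.10, and 0 of 5 numbers matched best). With 5 numbers a shared litter, cage or day could go unseen, so pairing was not excluded. The replicate block gave 0 genes at ZT16, 1061 at an unadjusted p under 0.05, and 0 genes in the difference between time points. With the replicate block the log2 fold changes were 0.051 in Arntl, -0.13 in Bhlhe41, 0.095 in Ciart, 0.014 in Nr1d2, 0.0089 in Per2 and 0.0014 in Per3.

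Of 110 named genes, 82 kept their sign in every alternative. The other 28, none of them called, changed sign. With the muscle score as a covariate the log2 fold changes were 0.38 in Arntl, -0.58 in Bhlhe41, 0.032 in Cd14, 0.24 in Cxcl13, -0.48 in Fbxl21, 0.20 in H2-Aa, -0.021 in Hlf, 0.21 in Lyz2, -0.028 in Myh11, -0.077 in Mylk, 0.033 in Per2, 0.010 in Pold3, -0.44 in Rora, -0.38 in Scg2 and -0.066 in Tef. With upper quartile scaling the log2 fold changes were -0.0041 in Bhlhe41, -0.014 in Clock and -0.0039 in Il1rn. In the fit of 60 libraries the log2 fold changes were -0.0026 in Bhlhe41 and -0.00077 in Clock. With limma voom the log2 fold changes were 0.42 in Ciart, -0.056 in Clock, -0.055 in Cry1, 0.48 in Dbp, -0.098 in Il18, -0.0036 in Il1rn, 0.12 in Nr1d1, 0.30 in Nr1d2, 0.065 in Per1, 0.14 in Per3 and -0.097 in Pigr. Without CIA replicate 5 and naïve replicate 3 the log2 fold changes were 0.093 in Ciart, -0.0047 in Cry1, 0.23 in Dbp, 0.034 in Nr1d1, 0.040 in Nr1d2, 0.034 in Per1, 0.039 in Per2 and 0.096 in Per3. With RLE scaling the log2 fold changes were -0.00026 in Clock. With no filter on low counts the log2 fold changes were -0.0084 in Clock and -0.0023 in Il1rn. With a mean of at least 5 CPM required the log2 fold changes were -0.0080 in Clock and -0.0030 in Il1rn. Without the 3 libraries apart the log2 fold changes were -0.021 in Clock, 0.034 in Dbp, -0.0094 in Il18 and -0.055 in Pigr. Over the fits that left out 1 library, log2 fold changes ran from -0.23 to 0.36 in Arntl, from -0.19 to 0.23 in Bhlhe41, from -0.24 to 0.037 in Cd14, from -0.60 to 0.48 in Ciart, from -0.061 to 0.042 in Clock, from -0.37 to 0.11 in Cxcl13, from -0.94 to 0.13 in Dbp, from -0.25 to 0.078 in H2-Aa, from -0.16 to 0.31 in Il18, from -0.24 to 0.49 in Il1rn, from -0.25 to 0.086 in Lyz2, from -0.45 to 0.11 in Nfil3, from -0.36 to 0.11 in Nr1d2, from -0.14 to 0.12 in Per2, from -0.24 to 0.13 in Per3, from -0.10 to 0.14 in Pigr, from -0.033 to 0.30 in Scg2, from -0.16 to 0.16 in Tef and from -0.017 to 0.17 in Vip. Among list medians, 10 of 1309 moved by more than the spread between libraries.

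With 5 libraries a group and these spreads, small differences were not detectable. Depth limits genes near 1 CPM or less.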
